A study of Homo sapiens with 2 samples.

Results

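The genes described here encode 10 enzymes of N-glycan branching and core fucosylation. MGAT1, MGAT2, MGAT4A, MGAT4B and MGAT5 start the branches. FUT8 adds the core fucose, and GMDS acts in making the GDP-fucose that FUT8 uses. B4GALT1 extends the branches with galactose, and ST6GAL1 and ST3GAL4 cap them with sialic acid. The genes were chosen by symbol from this pathway, and all 10 were found among the 33538 genes listed in the count tables. The series holds 2 single-cell libraries of UMUC3, an established human bladder carcinoma line, made with a droplet kit that counts the 3' ends of transcripts. One library is of GANAB knockdown cells and the other of control cells. GANAB encodes the catalytic subunit of ER glucosidase II, which trims glucose from new N-glycans before they leave the endoplasmic reticulum. Both libraries are of cells recovered 14 days after they had been placed in the bladders of C57 nude mice, a host that lacks a thymus, and so most T cells, while keeping B cells, NK cells and myeloid cells. How the knockdown was made, whether each cell population was a single clone, how many mice each library came from and what the sort before loading selected are not stated in the labels. With 1 library per group there is no replicate check. Levels and ratios therefore carry 95% intervals that cover counting error only, no test between the groups was possible, and a gene is called past 1.5-fold by size alone.

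N-glycans reach the Golgi as mannose-rich structures. MGAT1 and MGAT2 each start a branch on the trimmed core, the MGAT4 enzymes and MGAT5 add further branches, and galactose and sialic acid then complete each arm. MGAT5 branches are known for raising the binding of galectins and for their increase in many carcinomas, and core fucose, added by FUT8 from GDP-fucose, changes the activity of growth factor receptors and integrins. GMDS carries out the first step by which cells make GDP-fucose from GDP-mannose.

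Cells were taken as barcodes with at least 15000 UMIs (unique molecular identifiers, 1 for each captured transcript) and at most 20% mitochondrial UMIs, which left 2672 knockdown cells and 4385 control cells. Their median depth was 40933 UMIs in knockdown cells and 44046 UMIs in control cells, and 4 barcodes were shared by the cells of both libraries. The targeted gene, GANAB, stood at 42.3 CPM (UMIs of the gene as a share of all UMIs, scaled to 1e6, with a 95% Poisson interval of 41.2 to 43.4) in knockdown cells and 127 CPM (125 to 128) in control cells, 2.99-fold lower in knockdown. Of 10 markers of UMUC3 or of bladder carcinoma, 7 reached 10 CPM in each library, though not the same 7. CDH2 stood at 1.53 CPM in knockdown cells and 39.3 CPM in control cells, KRT7 at 18.4 CPM in knockdown cells and 8.09 CPM in control cells, and EPCAM at 0.113 CPM in knockdown cells and 0.00467 CPM in control cells. Markers of fibroblasts, endothelium and red cells stayed under 10 CPM in both libraries, DCN and LUM were at 0, the 6 fibroblast markers summed to 12.1 CPM in knockdown cells and 14.8 CPM in control cells, and of 6 leukocyte markers 1 passed, CD68, at 24.9 CPM in knockdown cells and 26.7 CPM in control cells. Each cell was also sorted by the share of its UMIs in 12 cycling genes: 34.4% of knockdown cells and 59.5% of control cells lay above the median of all cells and are called more-cycling below, the others less-cycling.

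The members' levels are also given within cells by their UMIs of TMEM132D-AS1, an antisense transcript on chromosome 12 that splits the control library. Cells with at least 2 UMIs, called TMEM132D-AS1-positive, made up 1942 knockdown cells (72.7%) and 241 control cells (5.50%). The other 730 knockdown cells and 4144 control cells had 0 or 1. Cells with 0 or 1 were not alike in this gene, at 3.26 CPM in knockdown cells and 0.209 CPM in control cells. GANAB was 38.1 CPM in positive knockdown cells and 130 CPM in positive control cells, and 54.0 CPM and 126 CPM in knockdown and control cells with 0 or 1, so it was lower in knockdown cells of both classes.

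The members that passed 1.5-fold over all cells were GMDS and MGAT5. Their promoter windows, 250 bases before to 50 bases after the RefSeq start, are shown because results below turn on these genes. GMDS lies on the minus strand at chr6:1623806-2245692 and MGAT5 on the plus strand at chr2:134119983-134454621 (GRCh38, GENCODE 29). The windows printed are chr6:2245556-2245855, minus strand, and chr2:134119685-134119984, plus strand, from RefSeq on GRCh38.p14, written 5′ to 3′ on the strand of the gene. Capitals mark matches to the GC box GGGCGG (or its complement CCGCCC) and to the ETS core CCGGAA (or its complement TTCCGG).
GMDS: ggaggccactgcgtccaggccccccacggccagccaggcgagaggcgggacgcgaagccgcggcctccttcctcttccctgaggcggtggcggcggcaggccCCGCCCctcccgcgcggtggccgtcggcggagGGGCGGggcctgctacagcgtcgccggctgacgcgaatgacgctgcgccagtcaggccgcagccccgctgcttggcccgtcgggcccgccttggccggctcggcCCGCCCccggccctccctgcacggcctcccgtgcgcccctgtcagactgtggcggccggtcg
MGAT5: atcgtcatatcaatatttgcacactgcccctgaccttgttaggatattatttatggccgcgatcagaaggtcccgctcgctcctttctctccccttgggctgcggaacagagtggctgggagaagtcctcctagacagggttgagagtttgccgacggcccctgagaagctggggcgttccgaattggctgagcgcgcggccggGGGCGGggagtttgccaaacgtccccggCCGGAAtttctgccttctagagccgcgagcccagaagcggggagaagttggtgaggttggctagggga
The GMDS window printed held 3 GC boxes and no ETS core, and the MGAT5 window printed held 1 of each. GMDS and MGAT5 each have 2 windows. The windows not printed, chr6:2175942-2176241 for GMDS and chr2:134253822-134254121 for MGAT5, held no GC box and no ETS core. Windows were found for 9 of the 10 members, all but MGAT4A, 22 windows in all. Of these, 15 held a GC box, against 45.0% of all 35116 windows in the table, and 7 held an ETS core, against 17.2% of all windows. The E-box CACGTG was in 1 of the 22, against 7.26% of all windows. MGAT1 has 6 of the 22 windows, and windows of 1 gene can overlap, as a pair of MGAT1 windows and a pair of B4GALT1 windows do, so that 1 match can be counted in both. Both strands were searched, and these are matches of letters, not measured binding sites.

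Over all analysed cells, the largest difference among the members was in GMDS, 3.51-fold lower in knockdown, and MGAT5 was 1.52-fold higher. The branch-starting MGAT1 and MGAT2 and the branch enzyme MGAT4B differed by at most 1.18-fold, and FUT8 and ST3GAL4 were lower without reaching 1.5-fold. Of the 10 members, 8 were measured, that is, reached 10 CPM in either group, and MGAT4A and ST6GAL1 did not. Of the 8, 1 was past 1.5-fold higher and 1 past 1.5-fold lower. The background over all 7872 measured genes was 18.1% past 1.5-fold in either direction, 7.69% higher and 10.4% lower. The median log2 ratio of the 8 members was -0.10, against -0.07 over all measured genes.

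**Figure D1:**
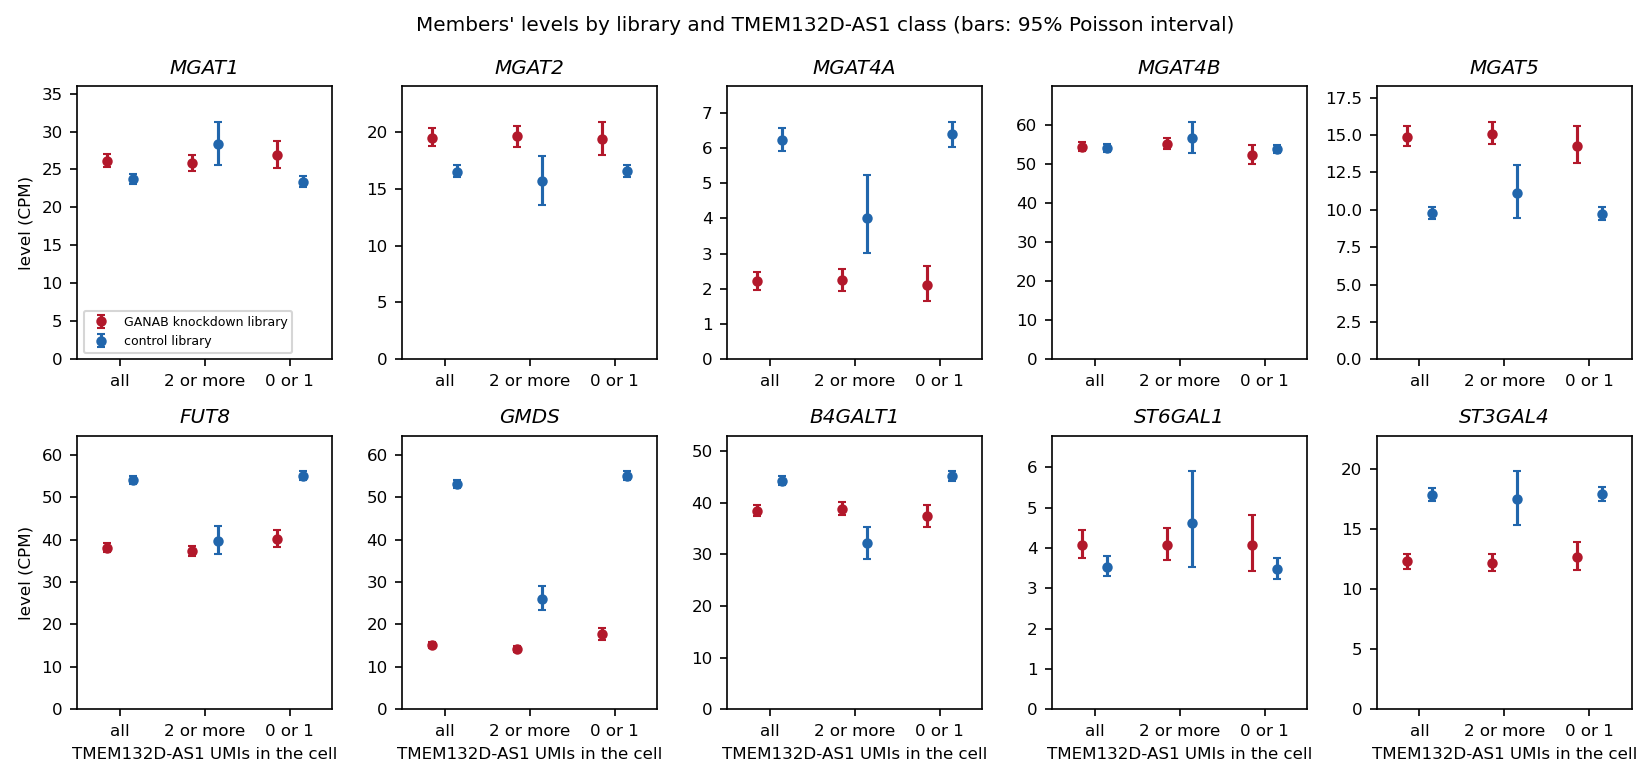
Level of each member in CPM (vertical axis) in all analysed cells, in cells with at least 2 TMEM132D-AS1 UMIs and in cells with 0 or 1, for the GANAB knockdown library (red) and the control library (blue), with 95% Poisson intervals for counting error. GMDS stood at 15.1 CPM in all knockdown cells and 53.2 CPM in all control cells, with positive control cells between at 26.1 CPM, while MGAT4B was nearly level in all of them.

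Among the enzymes that start branches, MGAT1 (chr5:180784782-180815652, minus strand), which places the first N-acetylglucosamine and without which no complex glycan forms, stood at 26.1 CPM in knockdown cells and 23.7 CPM in control cells. The log2 ratio was 0.14 (0.08 to 0.20). In positive cells it was 25.8 CPM in knockdown and 28.4 CPM in control, a log2 ratio of -0.13 (-0.29 to 0.02), so the sign over all cells was not seen there. Within the control library, MGAT1 was higher in positive cells, at 28.4 CPM, than in cells with 0 or 1, at 23.4 CPM.

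MGAT2 (chr14:49620795-49623481, plus strand), which starts the branch on the other arm, stood at 19.5 CPM in knockdown cells and 16.5 CPM in control cells, a log2 ratio of 0.24 (0.17 to 0.32). Among positive cells it was 19.6 CPM in knockdown and 15.7 CPM in control, with a log2 ratio of 0.32 (0.12 to 0.53). In cells with 0 or 1 TMEM132D-AS1 UMI it was 19.4 CPM in knockdown and 16.6 CPM in control. MGAT2 was thus slightly higher in knockdown in each class, by less than 1.5-fold.

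The MGAT4 enzymes add the same branch, and their transcripts behaved differently. MGAT4B (chr5:179797597-179806952, minus strand) stood at 54.4 CPM in knockdown cells and 54.1 CPM in control cells, a log2 ratio of 0.01 (-0.03 to 0.05). In positive cells it was 55.2 CPM in knockdown and 56.7 CPM in control. The gene overlaps SQSTM1 on the opposite strand, which had 33123 UMIs in knockdown cells and 42740 in control cells, and no source used here says whether strand was used in counting, so reads of the pair could be assigned to either and the MGAT4B level is uncertain. MGAT4A (chr2:98619106-98731126, minus strand) was scarce, with 293 UMIs or 2.21 CPM (1.96 to 2.48) in knockdown cells and 1336 UMIs or 6.24 CPM (5.91 to 6.58) in control cells. Its log2 ratio was -1.50 (-1.69 to -1.31) over all cells and -0.84 (-1.28 to -0.39) over positive cells, where the control held 55 UMIs. These are below the 10 CPM set for a call. MGAT4A was 4.02 CPM in positive control cells and 6.39 CPM in control cells with 0 or 1. The cycling classes differed in this: among more-cycling cells it was 2.28 CPM in positive knockdown cells, 2.56 CPM in positive control cells (25 UMIs) and 5.80 CPM in control cells with 0 or 1, and among less-cycling cells it was 2.21, 7.67 (30 UMIs) and 7.71 CPM in the same groups. Its log2 ratio accordingly ranged over the settings tried from -1.80 to -0.17 for knockdown over control in positive cells and from -1.18 to -0.01 between the control classes.

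MGAT5, which starts the branch that galectins favour, stood at 14.9 CPM (14.3 to 15.6) in knockdown cells and 9.82 CPM (9.40 to 10.2) in control cells. It reached 10 CPM through knockdown alone. The log2 ratio of 0.60 (0.51 to 0.69) lies at the 1.5-fold line, which is 0.58 on the log2 scale, and the interval crosses it. In positive cells MGAT5 was 15.1 CPM in knockdown and 11.1 CPM in control, 1.36-fold higher, and in cells with 0 or 1 it was 14.3 CPM in knockdown and 9.73 CPM in control, 1.47-fold higher. Positive control cells and control cells with 0 or 1, at 11.1 and 9.73 CPM, were not separated by their counting intervals, with a log2 ratio of 0.19 (-0.06 to 0.43).

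MGAT5 also varied with cycling. In the knockdown library it was 11.8 CPM in more-cycling cells and 17.7 CPM in less-cycling cells. In the control library it was 9.01 CPM in more-cycling cells and 11.6 CPM in less-cycling cells. Less-cycling cells were higher in both libraries, and the knockdown library holds more of them. The knockdown over control log2 ratio of MGAT5 was 0.39 among more-cycling cells, which does not pass 1.5-fold, and 0.61 among less-cycling cells, which does. In positive cells it was 12.3 CPM in knockdown and 8.91 CPM in control when more-cycling, and 17.6 CPM in knockdown and 16.6 CPM in control (12.8 to 21.2, from 97 control cells) when less-cycling. In cells with 0 or 1 it was 10.7 CPM in knockdown and 9.02 CPM in control when more-cycling, and 18.2 CPM in knockdown and 11.3 CPM in control when less-cycling. Knockdown was higher in each of these splits, and the intervals overlapped in less-cycling positive cells and in more-cycling cells with 0 or 1. The part of cycling in the MGAT5 difference was not tested beyond these values.

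**Figure D2:**
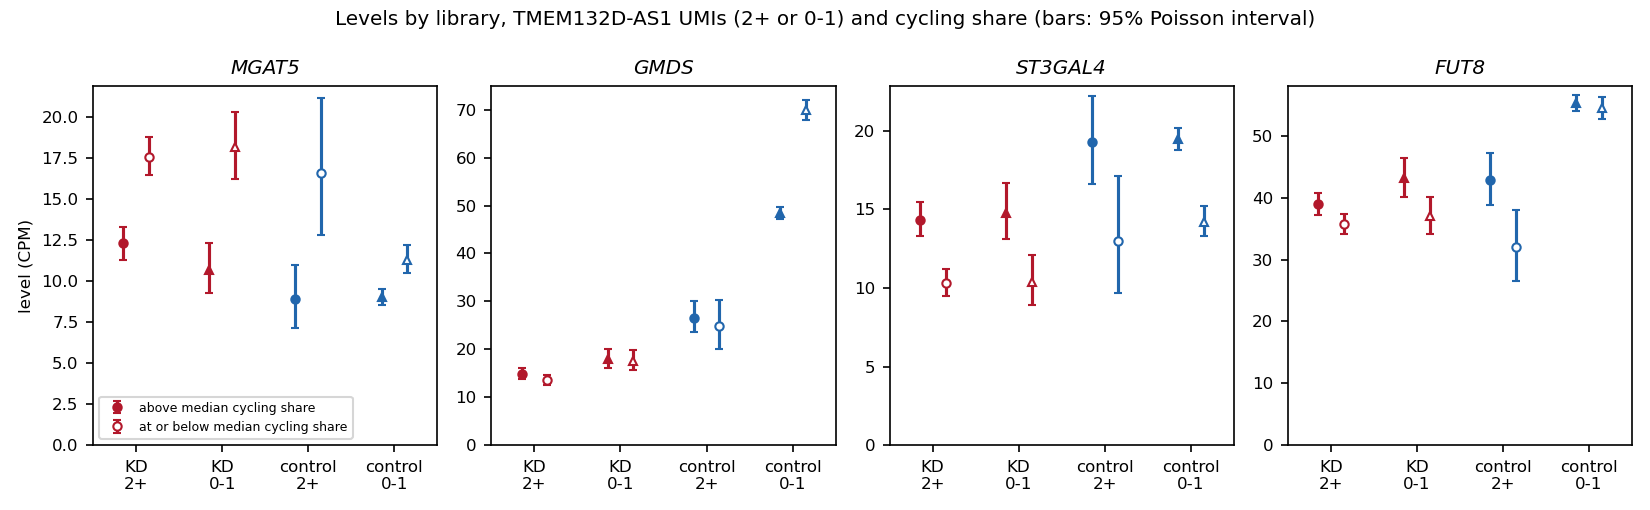
Level in CPM (vertical axis) of MGAT5, GMDS, ST3GAL4 and FUT8 in knockdown (KD, red) and control (blue) cells, split by TMEM132D-AS1 UMIs (2 or more as circles, 0 or 1 as triangles) and by cycling share (filled for cells above the median of all cells, open for the others), with 95% Poisson intervals. MGAT5 was lower and ST3GAL4 higher in more-cycling cells of each library, and GMDS stayed lowest in knockdown cells whichever way the cells were split.

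Of the core fucosylation enzymes, GMDS had the lower level in knockdown cells by every split made here. It stood at 15.1 CPM (14.5 to 15.8, 2009 UMIs) in knockdown cells and 53.2 CPM (52.2 to 54.2, 11393 UMIs) in control cells, a log2 ratio of -1.81 (-1.88 to -1.74). Among TMEM132D-AS1-positive cells it was 14.2 CPM (13.4 to 15.0) in knockdown and 26.1 CPM (23.5 to 29.0) in control, 1.84-fold lower in knockdown, with a log2 ratio of -0.88 (-1.05 to -0.71). Among cells with 0 or 1 it was 17.8 CPM in knockdown and 55.0 CPM in control, a log2 ratio of -1.63. Within the control library, positive cells at 26.1 CPM were 2.11-fold lower than cells with 0 or 1 at 55.0 CPM, a log2 ratio of -1.08 (-1.23 to -0.92). The order of the groups, from low to high, was positive knockdown cells, knockdown cells with 0 or 1, positive control cells and control cells with 0 or 1, and no neighbours in that order had overlapping intervals.

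**Figure D3:**
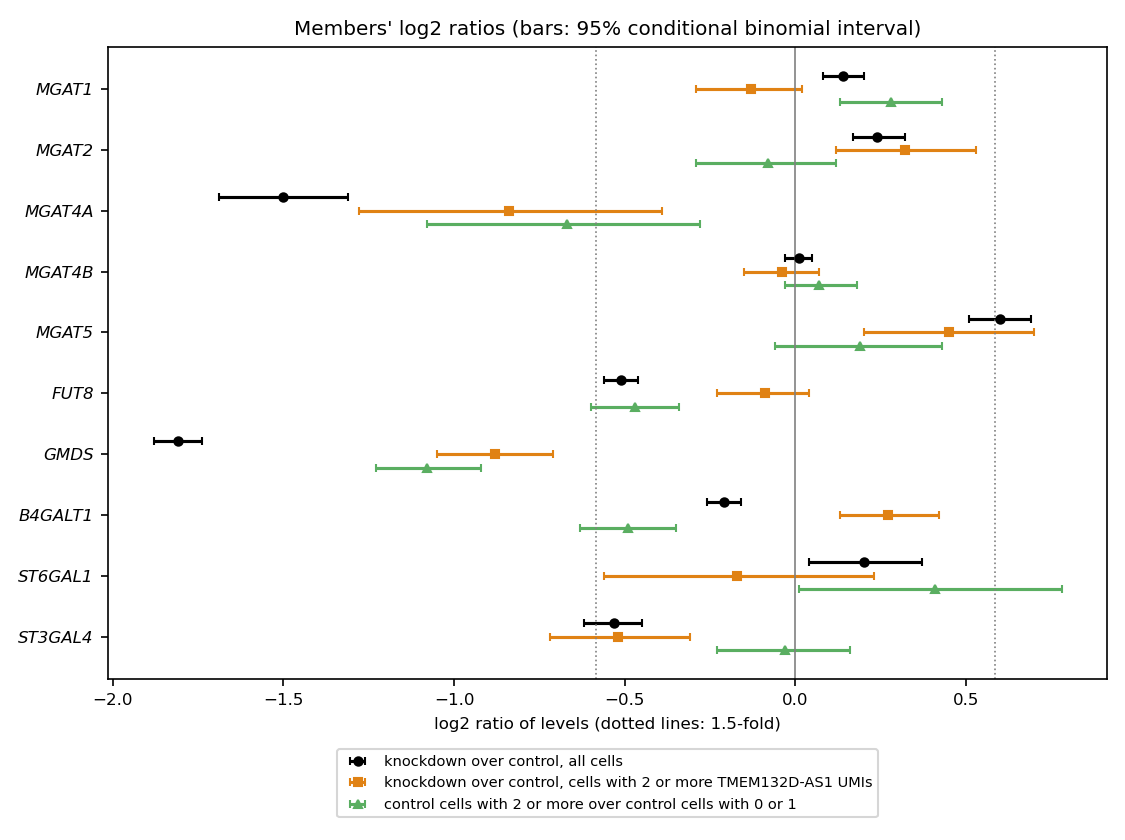
Log2 ratio of each member's level (horizontal axis) for knockdown over control in all analysed cells, for knockdown over control in cells with at least 2 TMEM132D-AS1 UMIs, and for control cells with at least 2 over control cells with 0 or 1, with 95% conditional binomial intervals, and dotted lines at 1.5-fold. GMDS lies left of the line in all 3 comparisons, at -1.81, -0.88 and -1.08, and FUT8 moves to -0.09 once positive cells alone are compared.

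GMDS was the one member past 1.5-fold when positive cells were compared: of 8 measured members 0 were higher and 1 was lower, against a background of 8.16% of 7720 measured genes past 1.5-fold in either direction, 3.58% higher and 4.59% lower. It was likewise the one past 1.5-fold between positive control cells and control cells with 0 or 1, where 0 members were higher, and where the background was 9.00% of 7747 measured genes, 4.58% higher and 4.41% lower. These comparisons share the positive control cells. The members' median log2 ratio was -0.07 in the first, against -0.09 over all measured genes, and -0.06 in the second, against -0.01. In cells with 0 or 1 TMEM132D-AS1 UMI, knockdown over control, 0 of 8 measured members were higher and 1 was lower, again GMDS, against a background of 16.4% in either direction, 7.85% higher and 8.57% lower. Within the knockdown library, positive cells over cells with 0 or 1, 0 of 8 measured members passed 1.5-fold, against a background of 0.803% in either direction, 0.290% higher and 0.514% lower.

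Finer steps of TMEM132D-AS1 gave a similar picture of GMDS. In the knockdown library its level was 18.3 CPM in cells with 0 UMIs, 14.0 with 1, 12.8 with 2, 13.8 with 3 to 4, 14.4 with 5 to 8 and 14.3 with 9 or more. In the control library it was 55.2 CPM in cells with 0, 43.4 with 1 (42 cells), 30.2 with 2 (17 cells), 19.6 with 3 to 4 (48 cells), 29.4 with 5 to 8 and 25.7 with 9 or more. The knockdown steps ran from 12.8 to 18.3 CPM, highest at 0. The control steps were highest at 0 and lower from 2 UMIs on, without a steady fall. Control was higher at every step, but at 3 to 4 UMIs its interval (14.4 to 26.0) overlapped that of knockdown (11.7 to 16.1).

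**Figure D4:**
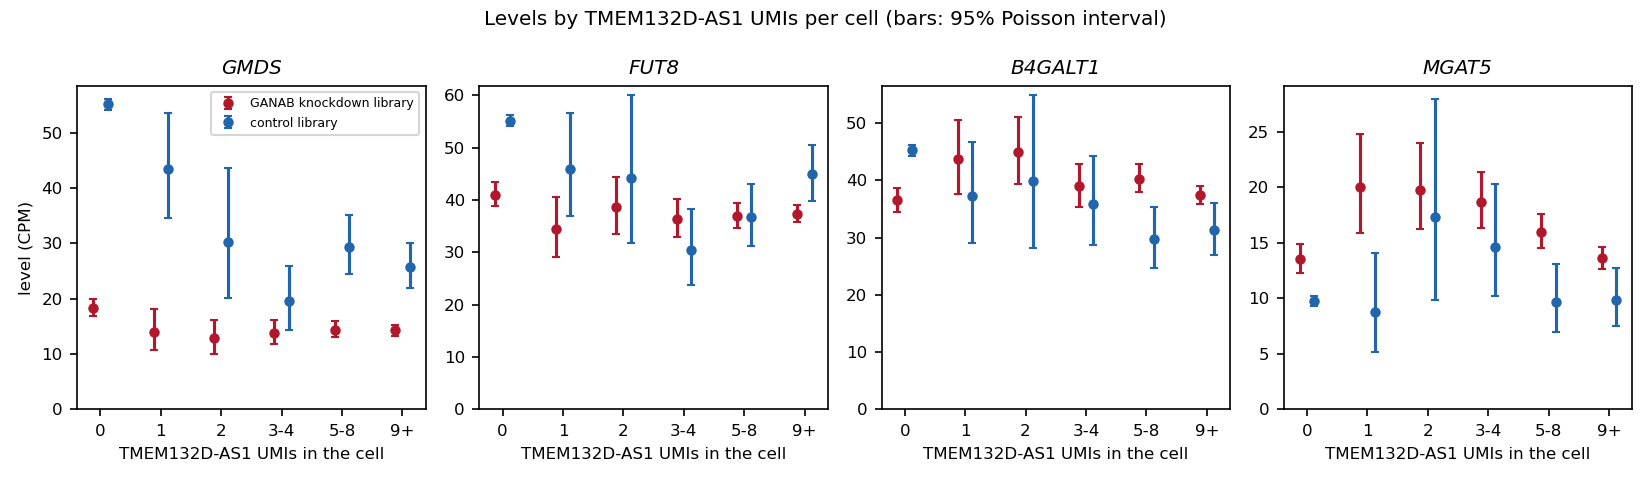
Level in CPM (vertical axis) of GMDS, FUT8, B4GALT1 and MGAT5 by the number of TMEM132D-AS1 UMIs in a cell (horizontal axis) in the knockdown library (red) and the control library (blue), with 95% Poisson intervals. The GMDS level in control cells was 55.2 CPM at 0 UMIs and 25.7 CPM at 9 or more, and in knockdown cells it was under 20 CPM at every step.

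The GMDS difference was spread over many cells. After each cell was thinned to 15000 UMIs, at least 1 GMDS UMI was found in 18.9% of knockdown cells (17.5 to 20.5, Clopper-Pearson) and 47.6% of control cells (46.1 to 49.1). Unthinned, the shares were 44.8% of knockdown cells and 76.9% of control cells. Among positive cells the thinned shares were 18.6% in knockdown and 27.8% (22.2 to 33.9) in control. High counts were rarer still in knockdown, with at least 3 thinned UMIs in 0.487% of knockdown cells and 8.23% of control cells. The variance of thinned counts over their mean was 1.17 in knockdown cells and 1.73 in control cells, where GMDS had the highest such ratio of the 10 members. The most GMDS UMIs seen in a single unthinned cell were 12 in the knockdown library and 55 in the control library.

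All analysed cells are of 1 line, so no cell type that should lack these enzymes was at hand to measure background. Barcodes with under 100 UMIs, which hold mostly free RNA, carried GMDS at 14.4 CPM (11.6 to 17.7) in the knockdown library and 50.3 CPM (45.6 to 55.2) in the control library, close to the levels in the cells of each library. The part of free RNA in single-cell shares was not tested. Nor was the part of free RNA, or of doublets, which were not removed, in the GMDS level of positive control cells. By depth, GMDS was 13.8, 14.5 and 16.0 CPM in knockdown cells of 15000 to 29999, 30000 to 59999 and at least 60000 UMIs, and 55.0, 58.3 and 47.0 CPM in control cells of the same steps, so its difference was present at each. Barcodes just under the cutoff, with 12000 to 14999 UMIs, had 12.1 CPM in knockdown and 51.4 CPM in control, and those just above it, with 15000 to 17999, had 15.2 CPM in knockdown and 57.9 CPM in control.

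By cycling, GMDS was 15.8 CPM in more-cycling knockdown cells and 47.0 CPM in more-cycling control cells, and 14.6 CPM in less-cycling knockdown cells and 67.2 CPM in less-cycling control cells. The difference between cycling classes was thus seen in the control library, and within it in cells with 0 or 1 TMEM132D-AS1 UMI, at 48.4 CPM when more-cycling and 69.9 CPM when less-cycling. In positive control cells the levels were 26.6 CPM when more-cycling and 24.8 CPM when less-cycling.

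Beside GMDS, of 13 measured genes within 1.954 Mb of its start (up to 10 on each side were sought), 0 were past 1.5-fold, and their median log2 ratio was 0.00, against backgrounds of 7.69% higher and 10.4% lower and a median of -0.07 over all measured genes. The one nearest to the line, named after its values were seen, was the tubulin gene TUBB2A, at 15.3 CPM in knockdown cells and 22.2 CPM in control cells, a log2 ratio of -0.54 (-0.61 to -0.46). Its log2 ratio was 0.26 for knockdown over control in positive cells, where GMDS was at -0.88, and -0.90 for positive control cells over the others, where GMDS was at -1.08. The nearest neighbours were FOXC1, a forkhead transcription factor, at 22.0 CPM in knockdown cells and 24.4 CPM in control cells, and WRNIP1, at 19.8 CPM in knockdown cells and 22.8 CPM in control cells. Of 20 neighbours of MGAT5, which reached out to 13.902 Mb, 0 were higher and 3 lower past 1.5-fold, with a median log2 ratio of -0.13. The nearest on each side were GPR39, at 5.10 CPM in knockdown and 10.4 CPM in control cells, and CCNT2, at 11.9 CPM in knockdown and 12.3 CPM in control cells, so the higher level of MGAT5 was not shared by them.

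**Figure D5:**
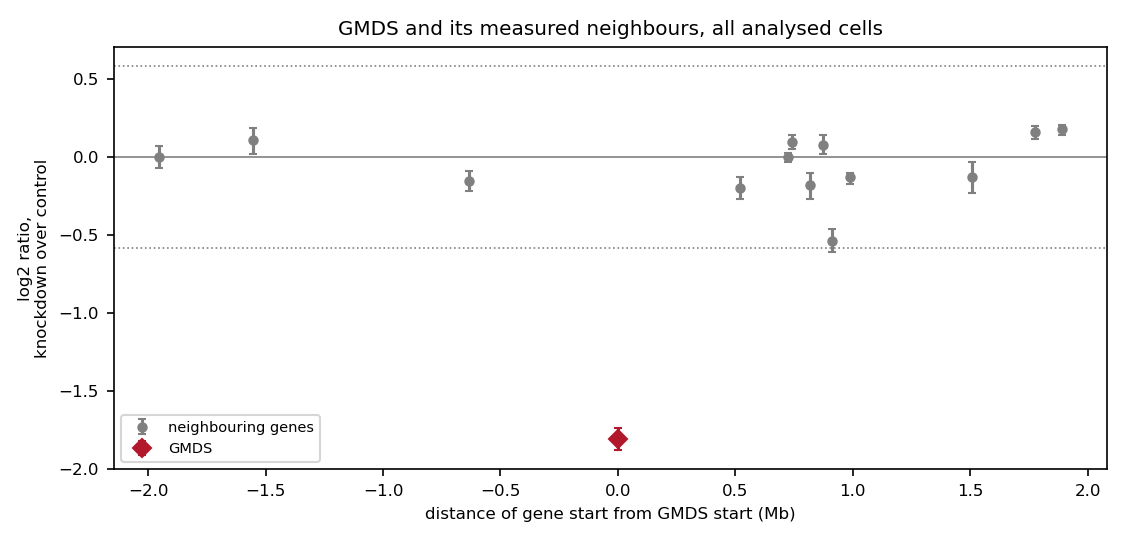
Log2 ratio of knockdown over control in all analysed cells (vertical axis) for GMDS and its 13 measured neighbours, by the distance of each gene's start from that of GMDS in Mb (horizontal axis), with 95% conditional binomial intervals and dotted lines at 1.5-fold. GMDS stands at -1.81, and no neighbour passes the dotted lines.

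FUT8 (chr14:65410592-65744121, plus strand), the transferase that uses GDP-fucose to put fucose on the innermost N-acetylglucosamine, was 38.0 CPM (37.0 to 39.1) in knockdown cells and 54.1 CPM (53.1 to 55.1) in control cells, a log2 ratio of -0.51 (-0.56 to -0.46). Among positive cells it was 37.3 CPM in knockdown and 39.8 CPM in control, and the log2 ratio of -0.09 (-0.23 to 0.04) was within counting error of 0. Within the control library, positive cells at 39.8 CPM stood below cells with 0 or 1 at 55.1 CPM, with a log2 ratio of -0.47 (-0.60 to -0.34). Knockdown cells with 0 or 1 TMEM132D-AS1 UMI were at 40.2 CPM. As whole classes, the low FUT8 groups were therefore all knockdown cells and the positive control cells. This contrasts with GMDS, where positive control cells stood apart from knockdown cells as well. Positive control cells were uneven in FUT8 by finer steps. At 2, 3 to 4, 5 to 8 and 9 or more TMEM132D-AS1 UMIs they had 44.2, 30.4, 36.8 and 44.9 CPM. Knockdown cells had 38.7, 36.4, 37.0 and 37.4 CPM at the same steps. At 9 or more, control (39.8 to 50.6) was above knockdown (35.8 to 39.1), and the intervals overlapped at the other steps.

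Over each whole library, FUT8 varied less with cycling than with depth. Its level was 40.2 CPM in more-cycling and 36.1 CPM in less-cycling knockdown cells, and 54.5 CPM in more-cycling and 53.2 CPM in less-cycling control cells. Within the positive class, more-cycling cells had 39.0 CPM in knockdown and 42.9 CPM (38.9 to 47.2) in control. Less-cycling positive cells had 35.8 CPM (34.2 to 37.4) in knockdown and 32.0 CPM (26.6 to 38.1) in control. Among cells with 0 or 1, FUT8 was 43.2 CPM in more-cycling and 37.1 CPM in less-cycling knockdown cells. The control cells with 0 or 1 had 55.3 CPM when more-cycling and 54.5 CPM when less-cycling. By depth FUT8 was 28.5, 36.2 and 42.1 CPM from the shallowest to the deepest knockdown cells and 41.4, 53.6 and 57.6 CPM over the same steps in control cells. The median depth was 51552 UMIs in positive control cells and 43760 UMIs in control cells with 0 or 1. FUT8 was not read by depth within these classes, so the part of depth in their difference was not tested. Thinned to equal depth, 38.1% of knockdown cells and 47.8% of control cells had a FUT8 UMI, and unthinned 69.2% of knockdown cells and 78.6% of control cells did. The antisense gene FUT8-AS1 overlaps FUT8 and had 130 UMIs in knockdown cells and 452 in control cells, few beside the 5049 and 11585 of FUT8 in the same groups.

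B4GALT1 (chr9:33104082-33167356, minus strand), which adds galactose to the new branches, differed little over all cells, at 38.4 CPM in knockdown and 44.3 CPM in control, a log2 ratio of -0.21 (-0.26 to -0.16). The classes went opposite ways. Among positive cells it was 38.8 CPM (37.6 to 40.1) in knockdown and 32.2 CPM (29.2 to 35.3) in control, and among cells with 0 or 1 it was 37.4 CPM (35.4 to 39.5) in knockdown and 45.2 CPM (44.2 to 46.1) in control. The knockdown levels were close to each other, while the control levels differed by class, with a log2 ratio of -0.49 (-0.63 to -0.35) for positive cells over cells with 0 or 1. Like MGAT5, B4GALT1 was lower in more-cycling cells, at 33.2 CPM against 43.2 CPM in less-cycling knockdown cells, and at 39.7 CPM against 54.8 CPM in less-cycling control cells. More-cycling cells made up 33.1% of positive knockdown cells and 59.8% of positive control cells. Among more-cycling positive cells B4GALT1 was 33.6 CPM (31.9 to 35.3) in knockdown and 29.7 CPM (26.4 to 33.3) in control. Among less-cycling positive cells it was 43.3 CPM (41.5 to 45.1) in knockdown and 38.4 CPM (32.5 to 45.0) in control. Knockdown was higher in each, and the intervals overlapped in each.

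The sialyltransferases had different patterns. ST3GAL4 (chr11:126355640-126440344, plus strand) was 12.3 CPM (11.7 to 12.9) in knockdown cells and 17.8 CPM (17.3 to 18.4) in control cells, a log2 ratio of -0.53 (-0.62 to -0.45). Among positive cells it was 12.2 CPM in knockdown and 17.5 CPM in control, with a log2 ratio of -0.52 (-0.72 to -0.31). Within the control library it was 17.5 CPM in positive cells and 17.9 CPM in the others, a log2 ratio of -0.03 (-0.23 to 0.16). ST3GAL4 thus differed by library and was near even between the control classes as wholes, and it did not reach 1.5-fold in any of these comparisons. By finer steps positive control cells were uneven. At 2, 3 to 4, 5 to 8 and 9 or more TMEM132D-AS1 UMIs they had 14.0, 11.3, 14.8 and 22.3 CPM. Knockdown cells had 10.5, 11.3, 10.5 and 13.3 CPM at the same steps.

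ST3GAL4 was higher in more-cycling cells, at 14.5 CPM against 10.3 CPM in less-cycling knockdown cells and 19.5 CPM against 14.2 CPM in less-cycling control cells. Knockdown was lower than control within each cycling class. With cells thinned, 15.4% of knockdown cells (14.0 to 16.8) and 22.1% of control cells (20.8 to 23.3) had a UMI of ST3GAL4, and unthinned 38.0% of knockdown cells and 50.8% of control cells did. Barcodes with under 100 UMIs had ST3GAL4 at 9.56 CPM in the knockdown library and 15.8 CPM in the control library. By depth, cells of 15000 to 29999, 30000 to 59999 and at least 60000 UMIs had 10.4, 10.9 and 14.1 CPM in knockdown. Control cells of the same steps had 12.8, 17.5 and 19.4 CPM. Barcodes just under the cutoff, with 12000 to 14999 UMIs, had 9.50 CPM in knockdown and 9.34 CPM in control. The part of depth in the ST3GAL4 difference was not tested.

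ST6GAL1 (chr3:186930485-187078553, plus strand), which caps galactose with sialic acid in another linkage, was scarce in both libraries, at 4.08 CPM (3.75 to 4.44) in knockdown cells and 3.54 CPM (3.30 to 3.80) in control cells. In positive cells it was 4.08 CPM in knockdown and 4.61 CPM (3.54 to 5.90, 63 UMIs) in control, whose intervals overlap. It was higher in less-cycling cells of both libraries, at 2.45 CPM in more-cycling and 5.57 CPM in less-cycling knockdown cells, and 2.92 CPM in more-cycling and 4.95 CPM in less-cycling control cells. The intervals of knockdown and control overlapped within each cycling class, at 2.08 to 2.87 and 2.65 to 3.21 CPM when more-cycling and 5.03 to 6.15 and 4.43 to 5.52 CPM when less-cycling.

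Of the members not yet given by cell, MGAT5 had a UMI in 18.9% of thinned knockdown cells (17.4 to 20.4) and 13.3% of thinned control cells (12.3 to 14.3), and unthinned in 41.7% of knockdown cells and 33.8% of control cells. MGAT4A had one in 3.52% of thinned knockdown cells and 8.85% of thinned control cells. For MGAT1 the thinned shares were 32.6% of knockdown cells and 29.5% of control cells, and for MGAT4B 54.6% of knockdown cells and 55.5% of control cells. The direction of each share over all cells was that of its level, except for MGAT4B, whose share and level were both near even.

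Around the members, 8 lists of related genes were read the same way, against the same background over all cells of 7.69% of measured genes higher and 10.4% lower. With 1 to 11 measured genes a list, a count says little beyond the genes themselves. Among the Golgi mannosidases that trim the glycan before branching, 2 of 4 measured genes were past 1.5-fold lower in knockdown over all cells and 0 higher. MAN1A1, which passed the 10 CPM level through control alone, stood at 1.09 CPM in knockdown cells and 77.0 CPM in control cells, and MAN2A1, which acts between MGAT1 and MGAT2, at 13.9 CPM in knockdown and 28.2 CPM in control. The other measured genes of the list were near even. MAN1A2 was 68.3 CPM in knockdown and 66.0 CPM in control, and MAN1B1 was 35.2 CPM in knockdown and 35.7 CPM in control. In positive cells MAN1A1 was still lower, at 0.522 CPM in knockdown and 11.6 CPM in control, while MAN2A1 was 13.5 CPM in knockdown and 15.4 CPM in control, not past 1.5-fold. In control cells with 0 or 1 TMEM132D-AS1 UMI, MAN1A1 was 81.4 CPM and MAN2A1 29.1 CPM.

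In the list that supplies GDP-fucose, 10 of 12 symbols were listed and 6 measured, of which 0 were higher and 2 lower. TSTA3, which completes GDP-fucose after GMDS, was 55.3 CPM in knockdown cells and 84.3 CPM in control cells, a log2 ratio of -0.61, and SLC35C2, a solute carrier tied to Golgi fucose use, was 25.0 CPM in knockdown and 41.7 CPM in control. In positive cells neither passed 1.5-fold, with TSTA3 at 54.4 CPM in knockdown and 62.8 CPM in control and SLC35C2 at 23.6 CPM in knockdown and 32.2 CPM in control. The list's median log2 ratio over all cells was -0.01, near the -0.07 of all measured genes. Of the other fucosyltransferases 1 was measured, POFUT1, which fucosylates EGF-like repeats such as those of Notch, at 15.9 CPM in knockdown and 20.4 CPM in control, not past 1.5-fold.

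In the list of other B4GALT galactosyltransferases, B3GNT genes and GCNT2, 3 of 5 measured were lower and 0 higher, with a median log2 ratio of -0.60. B3GNT5, which passed the 10 CPM level through control alone, stood at 9.06 CPM in knockdown and 26.2 CPM in control, B4GALT2 at 17.9 CPM in knockdown and 31.6 CPM in control, and B4GALT3 at 13.1 CPM in knockdown and 19.8 CPM in control. B4GALT5, at 50.4 CPM in knockdown and 48.1 CPM in control, was measured and not past 1.5-fold. The same held for B4GALT6, at 14.3 CPM in knockdown and 16.4 CPM in control. The unmeasured genes of the list lay under 10 CPM in both libraries. Among them, GCNT2 stood at 5.96 CPM in knockdown and 2.27 CPM in control, and B3GNT2 at 8.24 CPM in knockdown and 4.37 CPM in control. GCNT2 and B3GNT2 were named after their values were seen, and both were higher in knockdown. In positive cells 1 of the 5 was past 1.5-fold, B4GALT2, at 16.0 CPM in knockdown and 25.0 CPM in control. MGAT5B, a brain-enriched relative of MGAT5 and the only measured gene among other branching enzymes, was opposite to MGAT5 over all cells, at 18.9 CPM in knockdown and 28.8 CPM in control. In positive cells MGAT5B was 18.8 CPM in knockdown and 14.8 CPM in control, not past 1.5-fold, and control cells with 0 or 1 had 29.8 CPM.

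Of other sialyltransferases 2 were measured and 1 was higher: ST3GAL5, which makes the ganglioside GM3, stood at 27.7 CPM in knockdown and 9.70 CPM in control. It was also higher in positive cells, at 29.1 CPM in knockdown and 17.6 CPM in control. Under 10 CPM in both libraries, genes of this list went both ways. ST3GAL3 stood at 4.34 CPM in knockdown and 9.25 CPM in control, and ST8SIA4 at 0.543 CPM in knockdown and 0.0887 CPM in control. ST3GAL3 and ST8SIA4 were named after their values were seen. Among genes that supply the sugar donors, 1 of 11 measured was lower and 0 higher over all cells, GFPT2, an isoform of the entry enzyme of hexosamine synthesis, at 2.99 CPM in knockdown and 16.4 CPM in control. Among lysosomal enzymes that take glycans apart, 1 of 5 was lower and 0 higher, the sialidase NEU1, at 12.5 CPM in knockdown and 19.9 CPM in control, and in positive cells it was 12.4 CPM in knockdown and 10.1 CPM in control. GFPT2 passed the 10 CPM level through control alone. In positive cells it was 2.53 CPM in knockdown and 6.22 CPM in control, a log2 ratio of -1.30 (-1.66 to -0.93), and was not counted as measured there because both levels lie under 10 CPM. Of the 10 donor genes and 5 lysosomal genes that were measured in positive cells, 0 passed 1.5-fold.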

How the data were processed

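The authors deposited raw UMI counts per gene and barcode for each library, which were made with Cell Ranger 3.1.0 on the GRCh38 build, per the submitters' processing notes, with 10000 cells loaded per channel per the labels' protocols. Each deposited table lists 6794880 barcodes, so cells had not been selected. The use of strand in counting and the presence of mouse sequence in the reference are not stated in the sources used here, so reads of host cells could have been dropped or assigned to human genes.

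From these counts, barcodes with at least 15000 UMIs and at most 20% mitochondrial UMIs were kept, which hold 132709954 UMIs in the knockdown library and 214188781 in the control library. Doublets were not removed. UMIs were summed over cells and divided by the total (CPM), with exact Poisson, conditional binomial and Clopper-Pearson 95% intervals, in Python 3.11.15 with numpy 2.4.6, scipy 1.17.1, pandas 2.3.3 and matplotlib 3.10.9. UMIs without replicate libraries give counting error only, and no test between groups was run. A gene was called past 1.5-fold by size when it reached 10 CPM in either group. Positions came from GENCODE 29 and promoter sequences from RefSeq. The calculations were tested on simulated Poisson counts, the model that the intervals assume. Variation between cells beyond counting error was not simulated, so that test does not bear on it.

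The members, gene lists, cutoffs and the TMEM132D-AS1 split were chosen with earlier results of these data known. Named were all 10 members, GANAB, TMEM132D-AS1, the genes past 1.5-fold over all cells in each pathway list (or, with none, the most abundant), and the nearest measured neighbours. Some other genes were added, to complete the measured genes of a list or after their values were seen. Markers were named only to describe the cells. Alternatives changed the cell cutoffs, scaling, weighting, low-value filter, fold, cycling class and TMEM132D-AS1 threshold.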

Additional observations from a re-analysis of the deposited data

Results flagged for a closer look

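B4GALT1 went opposite ways in the classes of cells. Its knockdown over control log2 ratio was 0.27 (0.13 to 0.42) in cells with at least 2 TMEM132D-AS1 UMIs, at 38.8 CPM in knockdown and 32.2 CPM in control. In cells with 0 or 1 it was -0.27 (-0.36 to -0.19), at 37.4 CPM in knockdown and 45.2 CPM in control. In positive cells the ratio was 0.18 when more-cycling and 0.17 when less-cycling. The counting intervals of the knockdown and control levels overlapped in each. In cells with 0 or 1, B4GALT1 was 32.3 CPM in knockdown and 40.4 CPM in control when more-cycling. When less-cycling, these cells had 42.9 CPM in knockdown and 55.8 CPM in control. Each class has 1 library per group, so the difference between the classes and the part of cycling in it were not tested.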

How the results depend on the processing

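The count of members past 1.5-fold over all cells was 2 (MGAT5 and GMDS). It was 1 (GMDS) at 50 CPM or more, at 2-fold and in more-cycling cells alone, the last added after seeing the data, and 3 with no filter on low values, which let in MGAT4A. Among TMEM132D-AS1-positive cells it was 1 (GMDS), 0 at 50 CPM or more and at 2-fold, and 2 with no filter (MGAT4A and GMDS). Between positive control cells and control cells with 0 or 1 it was 1 (GMDS), and 2 without the deepest 5% of cells and in less-cycling cells (FUT8 and GMDS) and with no filter (MGAT4A and GMDS). Over all measured genes, the counts past 1.5-fold in these comparisons were 1426, 630 and 697, against 486, 197 and 179 at 50 CPM or more, 11139, 8777 and 9946 with no filter, and 415, 166 and 196 at 2-fold. Less-cycling cells gave 1175 in the third comparison, and more-cycling cells 399 in the second. Why these counts moved was not tested.

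The members' log2 ratios were recomputed 320 times, of which 291 stayed within their counting interval and 29 moved outside it. GMDS ranged from -2.20 to -1.58 over all cells and from -0.99 to -0.79 in positive cells. MGAT5 ranged from 0.39 to 0.67 over all cells and from 0.08, in less-cycling cells, to 0.53 in positive cells. ST3GAL4 ranged from -0.55 to -0.43 over all cells. The sign changed in some settings for FUT8 in positive cells (-0.14 to 0.16), for ST6GAL1 over all cells (-0.25 to 0.31) and for MGAT4B over all cells (-0.03 to 0.08) and in positive cells (-0.07 to 0.05). Between the control classes it changed for MGAT5 (-0.02 to 0.55) and ST3GAL4 (-0.13 to 0.04). No paired analysis was possible because each group has 1 library, and for the same reason no library could be left out. Depth limits MGAT4A and ST6GAL1, with 55 and 63 UMIs in positive control cells.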
